A study of Mus musculus with 12 samples.

Results

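The genes described here are 6 genes of peripheral glia, namely Mbp, Prx, Egr2, Sox10, S100b and Ngfr, chosen by name from the 24062 genes counted in each library. They were followed through 12 RNA sequencing libraries from back-skin wounds of C57BL/6 mice that had been made diabetic with streptozotocin, a toxin of pancreatic beta cells. Each library came from 1 mouse. The 4 treatment groups had 3 mice each, labelled blank, DSCG, pre-MCS-01 and post-MCS-01. All 4 groups share strain, wound site and diabetes, so no group is a non-diabetic control. MCS-01 is a mast cell stabilizer known only by its code name, DSCG is the usual abbreviation of the mast cell stabilizer disodium cromoglycate, and the blank group serves as control here. What pre and post refer to is not explained by the labels, which also give no dose, time, age, sex or batch.

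Schwann cells wrap the axons of peripheral nerves. Myelinating Schwann cells build a compact myelin sheath around single large axons, whereas non-myelinating Schwann cells hold bundles of thin axons, which in skin carry much of the sensory supply. After nerve injury Schwann cells take on a repair state, in which the myelin program is turned down and growth factors and adhesion molecules are made. Mbp encodes myelin basic protein, which holds the inner membrane faces of the sheath together. Its gene also gives golli transcripts, which immune cells make too. Prx encodes periaxin, a scaffold that links myelinating Schwann cells to their basal lamina, and Egr2 encodes the zinc finger transcription factor that drives the myelin program. Sox10 is the transcription factor that sets glial identity in the neural crest and is also made by melanocytes. S100b is a calcium-binding protein used as a Schwann cell marker and also made by adipocytes. Ngfr is the p75 neurotrophin receptor, kept by non-myelinating and repair Schwann cells and found in other skin cells too.

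Upstream sequence is shown for the 2 genes whose levels moved together most closely across the libraries, Egr2 and Ngfr, and for the myelin gene Prx. Each sequence comes from the 250 bases before an annotated RefSeq start on GRCm38.p6 and is written 5′ to 3′ on the strand of the gene. Bases inside an exon of GENCODE M21 were left off, which shortened the Ngfr stretch to 213 bases. The Egr2 stretch lies within the annotated span of its gene, between exons. Such windows were found for 4 of the 6 genes, and Egr2 has 5 of them. Capitals mark a serum response CArG box in Egr2 at chr10:67537619-67537868, plus strand. In Ngfr, at chr11:95587736-95587948, minus strand, they mark GC boxes (GGGCGG on either strand). In Prx, at chr7:27499074-27499323, plus strand, they mark a CCAAT box (CCAAT, searched on both strands).
Egr2: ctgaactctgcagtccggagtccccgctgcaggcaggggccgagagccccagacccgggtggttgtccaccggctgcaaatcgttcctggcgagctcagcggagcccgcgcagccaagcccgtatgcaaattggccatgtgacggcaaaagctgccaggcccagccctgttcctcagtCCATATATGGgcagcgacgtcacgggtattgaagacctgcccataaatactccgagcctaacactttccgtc
Ngfr: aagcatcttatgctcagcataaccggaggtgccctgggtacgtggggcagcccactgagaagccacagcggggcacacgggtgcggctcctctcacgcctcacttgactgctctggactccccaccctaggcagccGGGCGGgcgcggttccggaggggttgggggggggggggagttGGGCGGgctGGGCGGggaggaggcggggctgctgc
Prx: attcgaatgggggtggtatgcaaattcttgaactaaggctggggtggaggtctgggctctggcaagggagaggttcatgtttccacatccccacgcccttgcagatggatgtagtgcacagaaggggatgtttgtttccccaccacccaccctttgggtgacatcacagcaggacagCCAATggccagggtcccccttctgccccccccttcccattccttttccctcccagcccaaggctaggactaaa
The CArG box of Egr2 begins at position -72 from this start. A CArG box, searched by its consensus, stands in 1.47% of the 32851 windows of this length. It is also in the Egr2 windows that overlap this one, and another CArG box stands in a window further upstream. The window shown also holds CCAAT once on the minus strand and the cAMP response element core TGACG on each strand, none of them overlapping the CArG box. Ngfr has 4 GC boxes in its whole window, 3 of them in the stretch shown, a motif found in 32.7% of windows. The window of Prx has CCAAT at -73, a motif found in 33.8% of windows. None of the windows of these 4 genes held the Sox letters ACAAAG (16.5% of windows) or ACAATG (10.7%) on either strand. These matches are descriptions of letters and carry no measurement of binding.

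In GRCm38, the assembly that mm10 names, Mbp lies on chromosome 18 from 82475146 to 82585637 on the plus strand. Prx lies on chromosome 7 from 27499324 to 27520214 (plus) and Egr2 on chromosome 10 from 67535475 to 67542188 (plus). Sox10 lies on chromosome 15 from 79154908 to 79165240 (minus), S100b on chromosome 10 from 76253853 to 76261159 (plus) and Ngfr on chromosome 11 from 95568818 to 95587735 (minus). All 6 are annotated as protein coding. Exons of Prx share 300 bases with Gm15541, an antisense gene that is not among the symbols counted. Because no strand setting is given, Prx reads in that stretch cannot be assigned to 1 of the pair.

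Gene counts per library ranged from 3.84e+06 in blank replicate 3 to 5.05e+07, and that library was far shallower than the other 11. In 3 libraries, which are replicate 2 of pre-MCS-01, replicate 2 of DSCG and the shallow blank replicate, long genes had fewer reads relative to short ones, with a Spearman rho between exon length and relative log2 CPM of -0.385, -0.330 and -0.320. The other 9 libraries lay between -0.056 and 0.337. The skin label fitted the markers, since Krt14 and Krt5, keratins of basal keratinocytes, averaged 10407 and 6274 CPM. All 6 glial genes were among the 16267 genes that passed the filter on low counts, and their raw counts ran from 13 for S100b in the shallow blank library to 7230 for Egr2. CPM stands for read counts relative to the TMM-adjusted size of their library.

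Levels differed among the 6 genes when compared per kilobase of exon. Averaged over the 12 libraries, Egr2 was highest at 24.0 CPM per kilobase and Mbp followed at 7.49. Ngfr (4.05), Sox10 (3.66) and Prx (3.02) were lower, and S100b was lowest at 1.97 CPM per kilobase. Ngfr and Sox10, neighbours in that order, had group means per kilobase of 2.68 to 5.18 and 3.21 to 4.10, so their ranges overlapped. For comparison, the peripheral myelin gene Pmp22 averaged 32.1 CPM per kilobase.

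None of the 6 genes passed an adjusted p under 0.05 in any of the 6 pairs of groups or in the joint test of the 4 groups (edgeR quasi-likelihood test, Benjamini-Hochberg adjustment over 16267 genes). The share of all tested genes called was 0% for post-MCS-01, for pre-MCS-01 and for DSCG against blank. It was 0.824% for pre-MCS-01 against post-MCS-01, 0% for pre-MCS-01 against DSCG, 1.06% for post-MCS-01 against DSCG and 0% in the joint test. At an unadjusted p under 0.05 the count of members was also 0 in each pair and in the joint test, whereas of all genes 9.35%, 7.24% and 1.03% were under it for post-MCS-01, pre-MCS-01 and DSCG against blank. It was 10.2%, 2.36% and 11.3% for the remaining 3 pairs and 8.42% in the joint test. DESeq2 and limma-voom called 0 of the 6 as well, and limma-voom with library quality weights called Ngfr in 2 pairs, described below. Lowest adjusted p over the 6 genes were 0.568, 0.703 and 0.999 for post-MCS-01, pre-MCS-01 and DSCG against blank, and 0.509, 1 and 0.463 for the 3 pairs in the order just given. In the joint edgeR test the adjusted p ran from 0.827 for Egr2 to 0.976 for Sox10. In bulk wound RNA, fewer Schwann cells and less RNA per Schwann cell cannot be told apart.

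**Figure D1:**
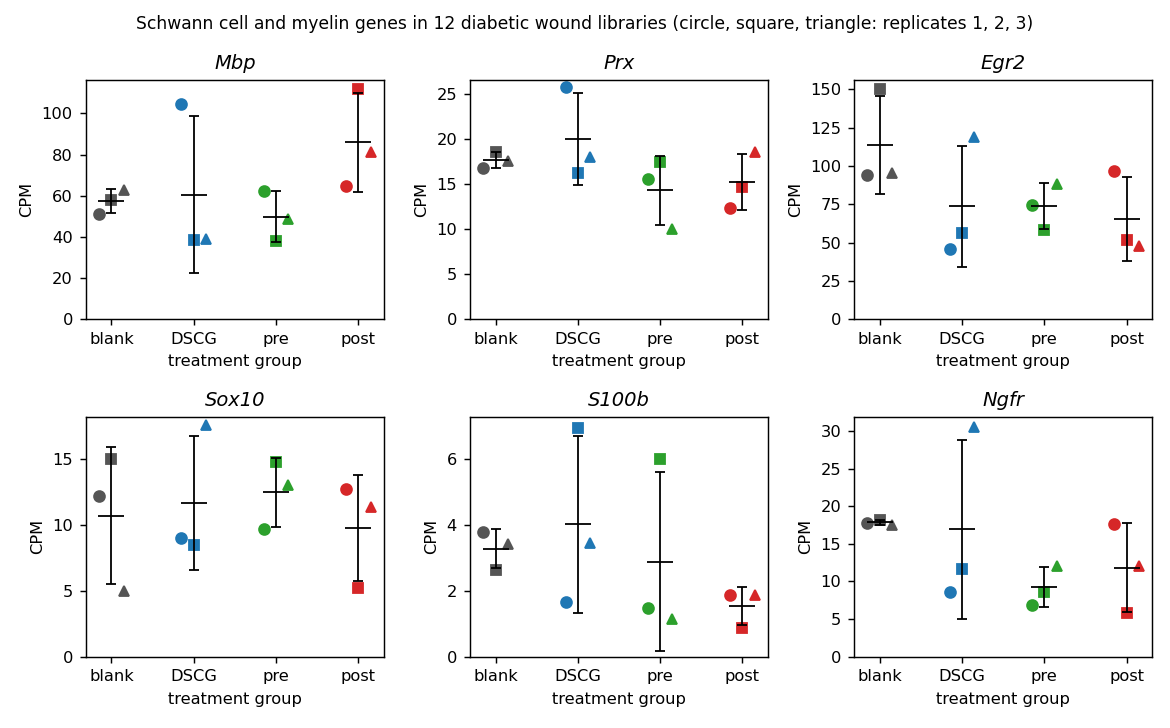
Level of each of the 6 genes in every library, in CPM (vertical axes, linear and from 0), by treatment group, with pre and post short for pre-MCS-01 and post-MCS-01. Symbols are libraries, wide bars group means and thin bars 1 SD over 3 libraries, and the spread within a group is as wide as the distance between groups in most panels, with Ngfr in blank (17.6 to 18.1 CPM) as a tight exception.

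Among the myelin genes, Mbp had its highest mean in post-MCS-01. Post-MCS-01 libraries read 64.7, 112 and 81.1 CPM, and pre-MCS-01 libraries 62.5, 38.0 and 48.9 CPM. In blank the levels were 51.3, 57.9 and 62.9 CPM, and in DSCG 104, 38.3 and 38.9 CPM. Each post-MCS-01 library was above each blank and each pre-MCS-01 library, while the DSCG group held both 1 of the highest values and 2 of the lowest. The mean of Mbp was 1.72-fold lower under pre-MCS-01 than it was under post-MCS-01 (log2 fold change -0.79 ± 0.37 SE, 95% interval -1.61 to 0.03, edgeR unadjusted p = 0.0586, adjusted p = 0.509). Against blank, the post-MCS-01 difference was 0.58 ± 0.37 (edgeR adjusted p = 0.711). The difference of post-MCS-01 from DSCG was 0.50 ± 0.37 with all libraries (adjusted p = 0.660). It was 1.16 and passed the edgeR test (adjusted p = 0.0473) once DSCG replicate 1, the library at 104 CPM, was left out. Leaving out each library in turn gave values from 0.25 to 1.16 for this pair.

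Prx was the steadiest of the 6. It read 12.4, 14.7 and 18.6 CPM in post-MCS-01, 25.8, 16.3 and 18.1 CPM in DSCG, 16.9, 18.6 and 17.6 CPM in blank and 15.6, 17.5 and 10.1 CPM in pre-MCS-01. The SD of its log2 CPM over the 12 libraries, 0.33, lay at percentile 35.0 of all tested genes, whose median SD was 0.42. Its largest difference was that of pre-MCS-01 from DSCG (-0.48 ± 0.26, 95% interval -1.04 to 0.08, edgeR adjusted p = 1). The ranges of Prx overlapped in every pair of groups.

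Egr2 had its highest mean in blank, at 113 ± 32.0 CPM (SD, n = 3), against 73.8 ± 15.0 CPM in pre-MCS-01, 73.6 ± 39.5 CPM in DSCG and 65.5 ± 27.2 CPM in post-MCS-01. By library it was 94.3, 150 and 95.6 CPM in blank, 45.7, 56.2 and 119 CPM in DSCG, 96.8, 52.0 and 47.7 CPM in post-MCS-01 and 74.5, 58.5 and 88.5 CPM in pre-MCS-01. The 3 blank libraries lay above the 3 pre-MCS-01 libraries, but DSCG replicate 3 and post-MCS-01 replicate 1 reached the blank range. The log2 fold changes against blank were -0.79 ± 0.39 for post-MCS-01, -0.62 ± 0.39 for pre-MCS-01 and -0.63 ± 0.39 for DSCG (edgeR adjusted p = 0.568, 0.731 and 0.999). These 3 comparisons share the blank libraries. Over the 12 libraries log2 CPM of Egr2 had r = -0.426 with Mbp and -0.258 with Prx (adjusted permutation p = 0.355 and 0.561). With Sox10, S100b and Ngfr r was 0.413, 0.136 and 0.747 (adjusted permutation p = 0.355, 0.774 and 0.0412). Which cells of the wound made the Egr2 RNA was not tested.

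Of the identity and marker genes, Sox10 differed least between groups. Its levels were 12.7, 5.23 and 11.4 CPM in post-MCS-01, 9.02, 8.50 and 17.6 CPM in DSCG, 12.2, 15.0 and 4.98 CPM in blank and 9.67, 14.8 and 13.0 CPM in pre-MCS-01. Low libraries stood in both the blank and the post-MCS-01 group, and all ranges overlapped. The largest Sox10 difference was that between pre-MCS-01 and post-MCS-01 (0.35 ± 0.44, 95% interval -0.61 to 1.31, edgeR adjusted p = 0.789). The low blank value rested on 19 reads of the shallow library. Melanocyte markers, which can share Sox10, summed to 198 to 921 CPM in pre-MCS-01 and to 29.6 to 78.3 CPM in post-MCS-01, and Sox10 had r = 0.617 with that sum over the 12 libraries (rho = 0.545, permutation p = 0.0335 and 0.0698, adjusted over 84 relations 0.180 and 0.300, r = 0.365 without the 2 farthest libraries).

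S100b varied most. It read 1.65, 6.92 and 3.45 CPM in DSCG, 3.78, 2.64 and 3.41 CPM in blank, 1.86, 0.864 and 1.88 CPM in post-MCS-01 and 1.49, 5.99 and 1.15 CPM in pre-MCS-01. The SD of its log2 CPM lay at percentile 88.5 of all genes, and its highest values were those of pre-MCS-01 replicate 2 and DSCG replicate 2, both among the 3 libraries poor in long transcripts. All post-MCS-01 libraries were below all blank libraries (log2 fold change -1.08 ± 0.67, edgeR adjusted p = 0.696). The difference of post-MCS-01 from DSCG was the largest of any member, at -1.38 ± 0.66 (95% interval -2.82 to 0.06, edgeR unadjusted p = 0.0582, adjusted p = 0.463). Without those 3 libraries these differences were -1.05 and -0.73 (edgeR adjusted p = 0.465 and 0.701). The difference of pre-MCS-01 from post-MCS-01 turned from 0.90 to -0.24 without them. S100b has a short exon length, 1484 bases, and its correlation with the length trend of the libraries was -0.603 (Spearman rho -0.490, permutation p = 0.0398 and 0.110, adjusted over 6 genes 0.239 and 0.265, r = -0.212 without the 2 farthest libraries).

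Ngfr was lowest in pre-MCS-01. Its levels were 6.91, 8.66 and 12.1 CPM there, 17.7, 5.78 and 12.1 CPM in post-MCS-01, 8.64, 11.6 and 30.6 CPM in DSCG and 17.8, 18.1 and 17.6 CPM in blank. The blank libraries had an SD of 0.288 CPM (n = 3), and all of them lay above the pre-MCS-01 libraries, while DSCG spanned from 8.64 to 30.6 CPM. The level was 1.93-fold lower in pre-MCS-01 than in blank (-0.95 ± 0.48, 95% interval -2.01 to 0.11, edgeR adjusted p = 0.703). The difference of pre-MCS-01 from post-MCS-01 was -0.36 ± 0.48 (edgeR adjusted p = 0.802), and leaving out 1 library gave -0.75 to -0.0059. With limma-voom and library quality weights the pre-MCS-01 differences were -1.27 from blank and -1.02 from post-MCS-01, and both passed (adjusted p = 0.0309 and 0.0332). That setting also called 2485 and 3818 genes in those pairs, against 0 and 134 with edgeR.

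**Figure D2:**
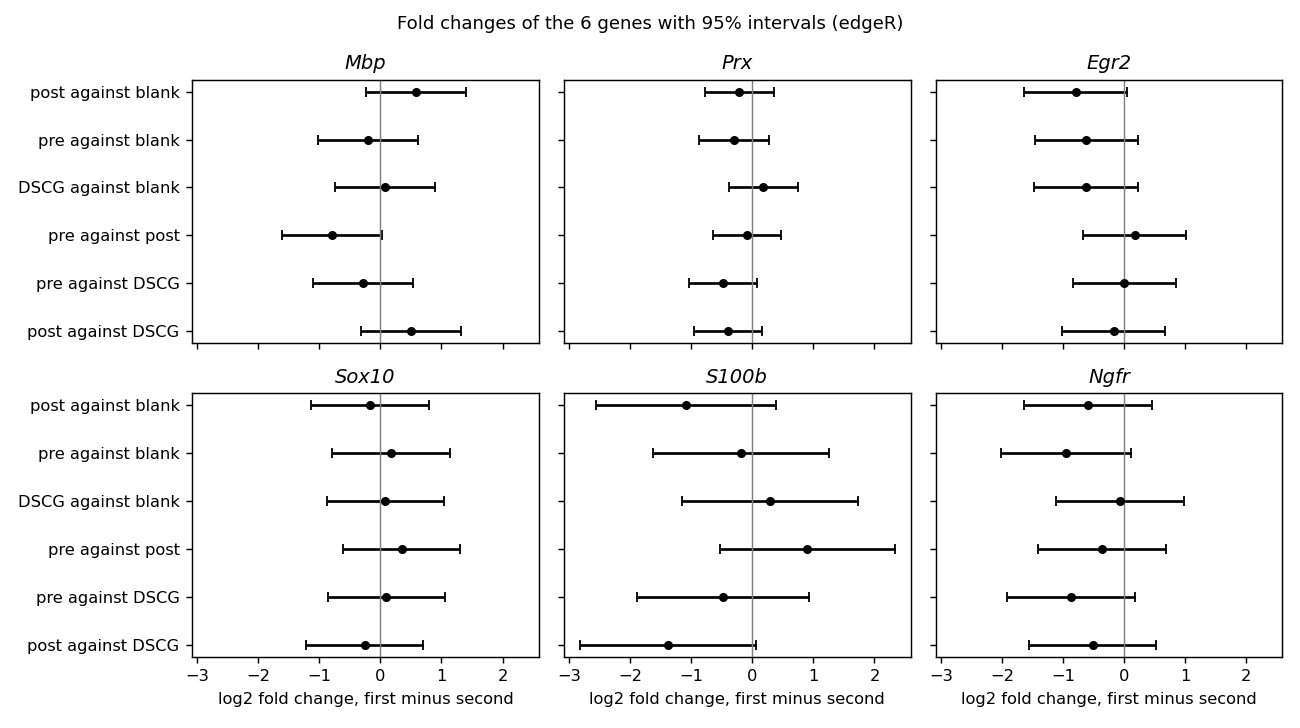
Log2 fold change (horizontal axes, first group minus second) of each of the 6 genes in the 6 pairs of groups, as points with 95% intervals from edgeR. All 36 intervals include 0, S100b has the widest intervals and Prx the narrowest.

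Counting groups whose libraries did not overlap gives a second view of the same values. For post-MCS-01 against blank this held for 2 of the 6 genes, Mbp higher and S100b lower, beside 18.4% of all tested genes. For pre-MCS-01 against blank it held for Ngfr and Egr2, both lower, beside 14.4% of all genes. For pre-MCS-01 against post-MCS-01 it held for Mbp alone, beside 17.7%. For DSCG against blank, pre-MCS-01 against DSCG and post-MCS-01 against DSCG it held for 0 of 6, beside 3.68%, 5.12% and 15.4% of all genes.

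The 6 genes did not move as 1 block across the libraries. Of the 15 pairs, 2 had a correlation of log2 CPM with an adjusted p under 0.05. Ngfr and Egr2 rose and fell together (r = 0.747, Spearman rho = 0.825, permutation p = 0.00549 and 0.00164, adjusted over 15 pairs 0.0412 and 0.0246). The relation was 0.682 without the 2 libraries farthest from the median of Ngfr, 0.736 when the 3 libraries poor in long transcripts were left out and 0.785 after the group means were removed. Mbp and S100b moved in opposite directions (r = -0.747, rho = -0.692, permutation p = 0.00549 and 0.0149, adjusted 0.0412 and 0.112), and r was -0.644 without the 2 farthest libraries and -0.766 within groups. The myelin genes Mbp and Prx had r = 0.246 (adjusted permutation p = 0.561, rho = 0.105), which fell to 0.002 without the 2 farthest libraries. Sox10 and Ngfr had r = 0.469 over all libraries (rho = 0.601, adjusted permutation p = 0.355 and 0.217), 0.664 without the 2 farthest libraries and 0.894 with those 3 libraries left out.

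Each of the 6 genes was also set against the summed CPM of 14 marker lists, on the log2 scale, and 3 of the 84 correlations had an adjusted permutation p under 0.05 for Pearson's r. None of the 3 was with a Schwann cell list. Of the Schwann cell lists, the identity list came nearest to the threshold for r, with S100b (r = -0.731, rho = -0.720, permutation p = 0.00566 and 0.011, adjusted 0.0679 and 0.0921). That sum is led by Pou3f1 (256 CPM) and Itga6 (132 CPM), and how much of it Schwann cells made was not tested. Of the 13 tested genes of the list, 3 correlated positively with S100b (median r -0.44). By rank alone, Ngfr passed with the compact myelin list, led by Fa2h and Pmp22 (rho = 0.860, permutation p = 0.00058, adjusted 0.0162, beside r = 0.735, adjusted 0.0717). The r of Ngfr with that list was 0.659 without the 2 farthest libraries, 0.848 with the 3 libraries poor in long transcripts left out and 0.712 within groups. Fa2h, at a mean of 245 CPM, weighed most in that sum and had r = 0.733 with Ngfr. Taken singly, 11 of the 14 genes correlated positively with Ngfr, at a median r of 0.18. Prx ran opposite to the immediate early list, past the threshold by rank only (rho = -0.790, adjusted permutation p = 0.0456, beside r = -0.646, adjusted 0.142). S100b followed the adipocyte list, led by Cfd and Fabp4 (r = 0.803, rho = 0.811, permutation p = 0.00115 and 0.00203, adjusted 0.0451 and 0.0341). Its r was 0.665 without the 2 farthest libraries, 0.836 with the 3 libraries poor in long transcripts left out and 0.769 within groups. Ngfr ran opposite to the sum of the basal keratinocyte list, led by Krt14 and Krt5 (r = -0.823, rho = -0.888, permutation p = 0.00126 and 0.00029, adjusted 0.0451 and 0.0122), and r was -0.669, -0.960 and -0.868 in the same 3 checks. The single genes of that list differed, with r = -0.871 for Krt14, -0.555 for Krt5 and 0.546 for Krt15. Of its 6 genes, 2 correlated positively with Ngfr, and the median r was -0.28. Mbp ran opposite to the melanocyte list, led by Dct and Pmel (r = -0.798, rho = -0.832, permutation p = 0.00161 and 0.00132, adjusted 0.0451 and 0.0277), with r = -0.640 without the 2 farthest libraries and -0.711 within groups. Melanocyte markers are low in post-MCS-01, where Mbp is high, and the part of cell makeup in any of these relations was not tested. CPM values share a library total, scaled here by TMM, and the part of that shared total in these relations was not tested. Hair follicle genes summed to 86.6 to 118 CPM in post-MCS-01 and to at least 1958 CPM elsewhere, so a pooled r also carries that gap between groups. Over all 12 libraries Mbp ran opposite to them, past the threshold by rank only (r = -0.790, rho = -0.902, permutation p = 0.00302 and 0.00017, adjusted 0.0625 and 0.0122). Its r was -0.956 over the 9 other libraries and -0.906 within groups. With the T cell list Mbp rose, short of the threshold (r = 0.690, rho = 0.762, permutation p = 0.0130 and 0.00525, adjusted 0.109 and 0.0619). That r was 0.460 without the 2 farthest libraries and 0.724 within groups, and 7 of the 7 genes correlated positively with Mbp. Which cells made the Mbp RNA was not tested.

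**Figure D3:**
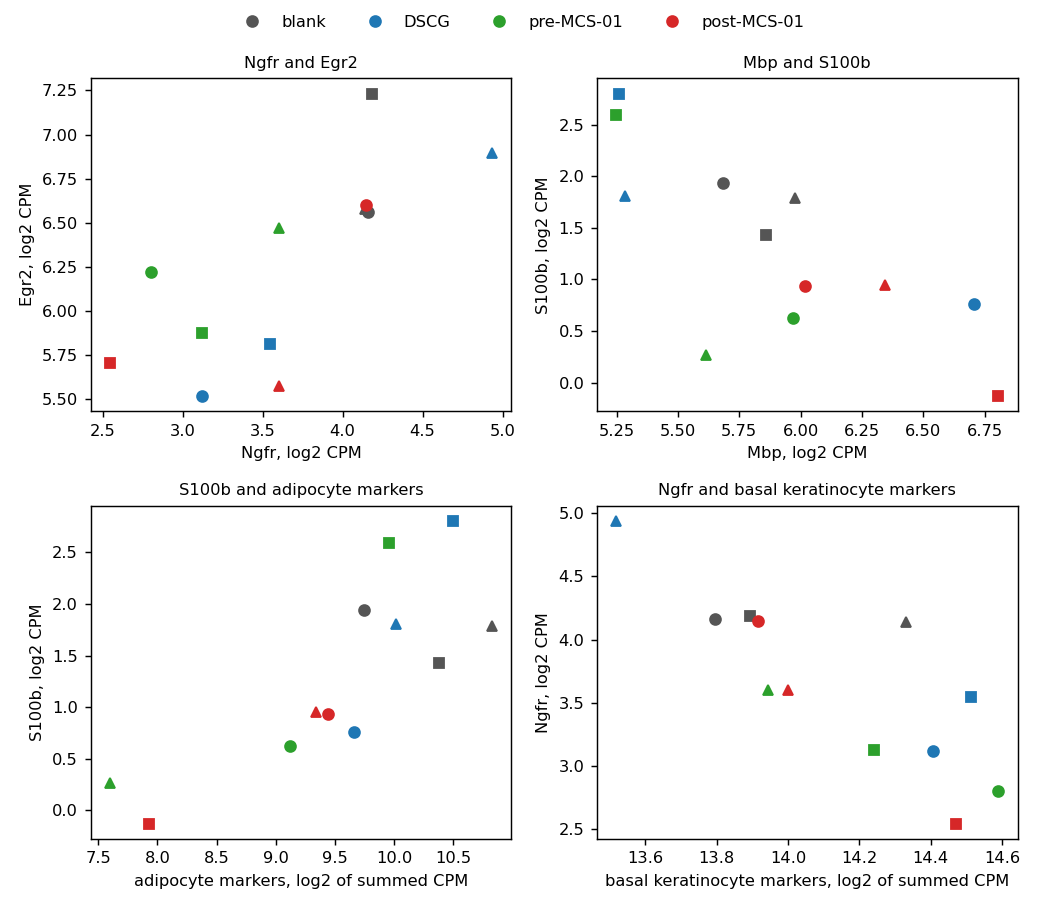
Library by library relations on log2 axes: Ngfr with Egr2, Mbp with S100b, S100b with summed adipocyte markers and Ngfr with summed basal keratinocyte markers, coloured by treatment group, with circle, square and triangle for replicates 1, 2 and 3. The r values over 12 libraries are 0.747, -0.747, 0.803 and -0.823, and post-MCS-01 lies apart from blank in Mbp and S100b, and from blank and DSCG in the adipocyte sum. The basal keratinocyte sum is led by Krt14 and Krt5, and 2 of its 6 genes correlated positively with Ngfr.

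The genes most like each member were taken as the 3 with the highest Pearson r of log2 CPM over the 12 libraries among 13516 genes, a choice that by itself gives high values. For Prx they included Plekha4 (r = 0.791) and Ripply3 (0.789). For Mbp they were D6Ertd527e (r = 0.927), the sodium-proton exchanger Slc9a9 (0.920) and the metalloproteinase Mmp28 (0.909). For Egr2 they were Napepld (0.933), the adhesion receptor Lphn3 (0.919) and Cdc42ep4 (0.919). For Sox10 they were Zfp422 (0.900), Zscan21 (0.898) and the sterol regulator Insig1 (0.896). For S100b they were Hdhd3 (0.961), Hrsp12 (0.956) and its family relative S100a1 (0.956), and for Ngfr they were Lhpp (0.902), Tdrp (0.899) and the fatty acid transporter Cd36 (0.893).

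The wider myelin program was read from 14 genes of compact myelin and the myelinating Schwann cell. In pre-MCS-01, 13 of the 14 were lower than in blank (median log2 fold change -0.77, all genes 0.037), 13 were below their post-MCS-01 level (median -0.71, all genes 0.025) and 11 lower than in DSCG (median -0.58, all genes 0.029). These 3 comparisons share the pre-MCS-01 libraries. No gene of the list passed the edgeR test, beside 0%, 0.824% and 0% of all genes, and 4, 2 and 1 of the 14 had an unadjusted p under 0.05 beside 7.24%, 10.2% and 2.36%. DESeq2 and limma-voom also called 0, and limma-voom with library quality weights called 5 against blank and 5 against post-MCS-01, beside 15.3% and 23.5% of all genes, in both cases Pmp22, Cnp, Fa2h, Nfasc and Dhh. Between the other groups the list lay close to balance, with 8 of 14 lower in post-MCS-01 and 9 of 14 lower in DSCG than in blank.

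Dhh, the hedgehog ligand by which Schwann cells signal to the sheath around the nerve, lies on chromosome 15 from 98891152 to 98898540 on the minus strand and was chosen for mention after its values were seen. Dhh levels were 2.75, 1.99 and 4.02 CPM in post-MCS-01, against 1.86, 1.05 and 1.08 CPM for pre-MCS-01. In DSCG it read 4.28, 2.33 and 3.05 CPM, and in blank 3.57, 3.87 and 1.57 CPM. Every pre-MCS-01 library was below every post-MCS-01 and DSCG library, while blank replicate 3, with 6 reads of this gene, lay inside the pre-MCS-01 range. The differences of pre-MCS-01 were -1.13 ± 0.41 from post-MCS-01 and -1.27 ± 0.41 from DSCG (edgeR adjusted p = 0.354 and 1). Pmp22, a membrane protein of compact myelin also made by fibroblasts, read 45.2, 57.5 and 54.1 CPM in pre-MCS-01 and 103, 98.9 and 69.7 CPM in blank (-0.79 ± 0.27, edgeR adjusted p = 0.658). Cnp, a myelin enzyme, read 19.2, 18.1 and 17.6 CPM in pre-MCS-01 and 26.9, 30.9 and 28.3 CPM in blank (-0.65 ± 0.27, edgeR adjusted p = 0.669). Fa2h, which makes the hydroxylated lipids of myelin and of skin, was the most abundant of the list per kilobase and spread from 68.5 to 570 CPM over the libraries. Ncmap, a protein of the uncompacted myelin, was the fourth by level per kilobase (1.99), after Fa2h (81.3), Pmp22 (32.1) and Cnp (6.83). Of the 14 genes, 10 correlated positively with Prx (median r 0.49), 11 with Mbp (0.25), 11 with Ngfr (0.18), 7 with S100b (0.042), 8 with Egr2 (0.047) and 7 with Sox10 (-0.019).

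Some lists of other cell types were lower in pre-MCS-01 too, and some were higher. Against blank, 10 of 10 adipocyte genes (median -1.75), 10 of 10 macrophage genes (-0.70), 8 of 8 endothelial genes (-0.61) and 8 of 10 skeletal muscle genes (-0.46) were lower. Against post-MCS-01 the counts were 8 of 10 (-0.068), 10 of 10 (-0.93), 8 of 8 (-0.50) and 10 of 10 (-0.75). Melanocyte genes were higher in pre-MCS-01 for 9 of 10 against blank (median 1.82) and 10 of 10 against post-MCS-01 (3.73), and hair follicle genes for 12 of 12 in both pairs (0.92 and 8.59). Basal keratinocyte genes were balanced, with 3 of 6 lower in each pair (-0.080 and -0.12). Of the T cell genes 2 of 7 were lower than in blank (0.086) and 6 of 7 were below post-MCS-01 (-0.19), and of the immediate early genes 6 of 9 were lower in each pair (-0.26 and -0.12). The summed adipocyte level was 194 to 997 CPM in pre-MCS-01 and 858 to 1820 CPM in blank, and the summed macrophage level was 1135 to 1576 and 2046 to 2197 CPM. No adipocyte, macrophage, endothelial or skeletal muscle gene was at 0 in any library, and their part in the lower myelin values was not tested.

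**Figure D4:**
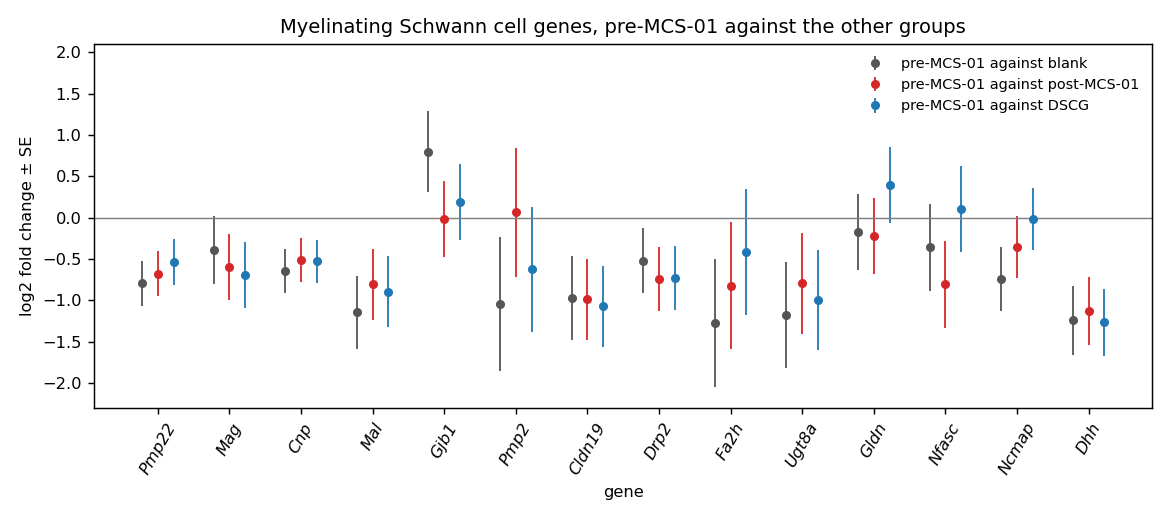
Log2 fold change (vertical axis) with 1 SE of 14 myelinating Schwann cell genes in pre-MCS-01 against blank, post-MCS-01 and DSCG. Most points lie below 0, at medians of -0.77, -0.71 and -0.58, and the error bars of many reach toward it.

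Of 14 identity and receptor genes, 13 were tested and 0 passed in any pair by edgeR, DESeq2 or limma-voom, while 0 to 3 per pair had an unadjusted edgeR p under 0.05. The count of 3 was reached in pre-MCS-01 against post-MCS-01 and in post-MCS-01 against DSCG, beside 10.2% and 11.3% of all genes. With library quality weights, limma-voom called 3 of the 13 in pre-MCS-01 against blank, beside 15.3% of all genes, and 4 against post-MCS-01, beside 23.5%. Against blank, 7 of 13 were lower in pre-MCS-01 and 9 of 13 higher in post-MCS-01, and 11 of 13 had a pre-MCS-01 level under their post-MCS-01 level (median -0.35). The most abundant per kilobase were Pou3f1 (66.6), a POU factor of promyelinating Schwann cells and of epidermis, the Egr2 corepressor Nab2 (26.7), the adhesion protein Cadm4 (15.4) and the neuregulin receptor Erbb3 (15.2). Erbb3 spread from 22.5 to 189 CPM over the libraries, with both ends outside the blank group.

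Of 14 genes of repair and non-myelinating Schwann cells, 10 had a lower level in pre-MCS-01 than in blank (median -0.42) and 10 had a pre-MCS-01 level under their post-MCS-01 level (-0.40). In DSCG, 11 were lower than in blank (-0.29). By edgeR 0 passed, and 0 to 6 per pair had an unadjusted p under 0.05, with the 6 in pre-MCS-01 against post-MCS-01 beside 10.2% of all genes. DESeq2 called at most 2 of the repair genes, in post-MCS-01 against DSCG, beside 3.81% of all genes. Limma-voom with quality weights called at most 9 of them, for pre-MCS-01 against post-MCS-01, beside 23.5%. Jun, the transcription factor that drives the repair state, was the most abundant per kilobase (92.0) and read 253, 176 and 362 CPM in pre-MCS-01 and 372, 274 and 439 CPM in blank (-0.46 ± 0.30, edgeR adjusted p = 0.735). Ednrb (8.39 per kilobase), an endothelin receptor, differed most between post-MCS-01 and blank (-0.62 ± 0.30, edgeR adjusted p = 0.570), and the adhesion molecule L1cam (3.59 per kilobase) between post-MCS-01 and DSCG (-0.47 ± 0.30, edgeR adjusted p = 0.595). Shh, a signal made by hair matrix cells as well, was 0.428, 0.192 and 1.93 CPM in post-MCS-01 and 11.6, 12.1 and 12.2 CPM in pre-MCS-01 (3.80 ± 0.97, edgeR adjusted p = 0.137). DESeq2 called Shh in this pair, beside 2.63% of all genes, and the summed hair follicle list moved with it, from at least 12506 CPM in the pre-MCS-01 libraries to at most 118 CPM in the post-MCS-01 libraries.

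The growth signals of Schwann cells were read from 10 genes. By edgeR 0 of them passed in any pair, and 0 to 4 per pair had an unadjusted p under 0.05, with the 4 in post-MCS-01 against blank beside 9.35% of all genes. At most 2 were called by DESeq2, for post-MCS-01 against DSCG, beside 3.81%, and at most 5 by limma-voom with quality weights, for pre-MCS-01 against post-MCS-01, beside 23.5%. Among the ligands, Bdnf, the brain-derived neurotrophic factor, which also stands on the repair list, read 1.46, 1.70 and 1.12 CPM in post-MCS-01 and 0.811, 0.505 and 0.423 CPM in DSCG. Its post-MCS-01 libraries were all above those of DSCG, at a difference of 1.30 ± 0.47 (edgeR adjusted p = 0.294). Ntf3, neurotrophin 3, stayed at or under 1.05 CPM in every library.

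**Figure D5:**
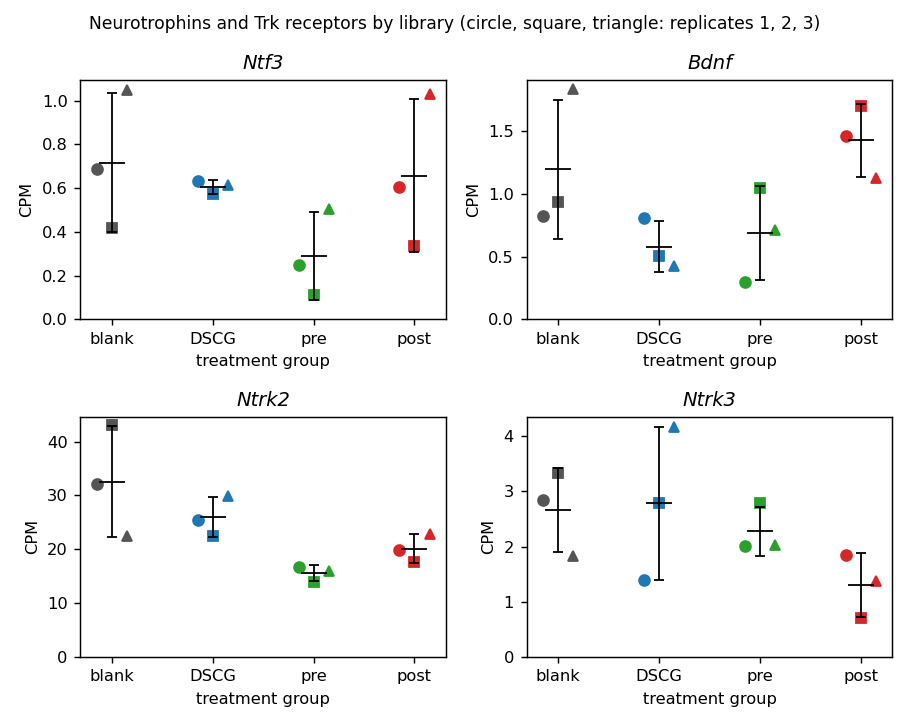
Levels of 2 neurotrophins and 2 Trk receptors in every library, in CPM (vertical axes, linear and from 0), with wide bars for group means and thin bars for 1 SD over 3 libraries. Bdnf is at 1.12 to 1.70 CPM in post-MCS-01 and at 0.423 to 0.811 CPM in DSCG, and Ntrk2 is lowest in pre-MCS-01.

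Of the receptors, Ntrk2, the receptor of brain-derived neurotrophic factor, read 16.7, 13.8 and 16.0 CPM in pre-MCS-01 and 32.2, 43.1 and 22.5 CPM in blank (-1.08 ± 0.23, edgeR unadjusted p = 0.000662, adjusted p = 0.583), and DESeq2 called it, beside 0.424% of all genes. Nrg1, which on axons is the signal that sets myelin thickness, read 7.21, 11.1 and 5.69 CPM in post-MCS-01 and 3.08, 3.20 and 0.524 CPM in blank (1.66 ± 0.49, edgeR adjusted p = 0.249), and DESeq2 called it too, beside 2.51%. Which cells of the wound made this Nrg1 RNA was not tested. The 4 genes Bdnf, Ntf3, Ntrk2 and Nrg1 were chosen for mention after their values were seen. The 4 most abundant of the list per kilobase were Erbb2 (39.2), Sort1 (15.6), Erbb3 (15.2) and Ret (3.29), and Erbb2 and Sort1 stayed within 0.28 on the log2 scale in all pairs.

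Axonal transcripts were scarce. Of 11 genes of axons and sensory neurons, 4 passed the filter on low counts, and Nefl, Nefm, Nefh, Scn9a, Scn10a, Calca and Tac1 averaged between 0.0056 and 0.171 CPM. Of the 4 tested, Tubb3 averaged 25.4 CPM per kilobase, Uchl1 2.63, Stmn2 0.530 and Prph 0.111. By edgeR 0 of them passed, and 0 to 2 per pair had an unadjusted p under 0.05, with the 2 in pre-MCS-01 against post-MCS-01 beside 10.2% of all genes. Uchl1, a neuronal ubiquitin hydrolase, was 4.96, 5.25 and 7.44 CPM in post-MCS-01, against 2.04, 3.15 and 2.72 CPM for the pre-MCS-01 mice (-1.16 ± 0.32, edgeR adjusted p = 0.182). Tubb3 was 17.1, 18.9 and 23.9 CPM in post-MCS-01 and 24.3, 150 and 55.9 CPM in DSCG (-1.94 ± 0.57, edgeR adjusted p = 0.174). DESeq2 called each of these 2 genes in the pair given, beside 2.63% of all genes for the pair of Uchl1 and 3.81% for that of Tubb3.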

How the data were processed

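RNA from 12 diabetic mouse wounds was sequenced, 1 library per mouse, with a miRNeasy extraction and an Illumina TruSeq kit per the labels' protocols. The deposited values are raw read counts per gene symbol that the authors made with TopHat2, Bowtie2 and HTSeq on mm10, per the submitters' processing notes, which also name FastQC and limma. Versions, annotation and strand are not given in the sources used here. Summary lines of the counter were left out of totals. Reads not uniquely placed made up 17.2% to 23.4% and reads in no single gene 5.36% to 8.16% of all lines.

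In R 4.3.3, genes were filtered with filterByExpr (16267 kept) and scaled with TMM (factors 0.905 to 1.07). All 6 pairs of groups and a joint test used the two-sided quasi-likelihood test of edgeR 4.0.16 in 1 model of 12 libraries, with Benjamini-Hochberg adjustment over all genes tested and a threshold of 0.05. Log2 CPM used a prior count of 2. With 3 against 3, an exact permutation of 1 value cannot go below p = 0.1, so single genes were tested in that model. Correlations over libraries used 100000 resamples, two-sided. Exon lengths and coordinates came from GENCODE M21, and 95.4% of tested genes had a length. Only the edgeR fit, for post-MCS-01 against blank, was tested on simulated counts, with the same dispersion for every gene. DESeq2 1.42.0, limma 3.58.1 and other settings were tried as alternatives. P-values of the group tests rest on the spread between mice. Those of the correlations come from shuffling all 12 libraries regardless of group, so they also carry differences between groups.

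Named were all 6 members, from each glial, growth signal or axon list the genes past the threshold and the 4 most abundant per kilobase, and 3 most similar genes per member. The members, lists and tests were chosen with earlier results of these data known, and the lists are no independent support. Settings without the 3 libraries short of long transcripts, without the 2 farthest libraries and with group means removed were added after seeing the data. Some genes of the myelin and growth signal lists are not reported here and are left out of the counts, sums and correlations of those lists.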

Additional observations from a re-analysis of the deposited data

How the results depend on the processing

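No paired analysis was possible because the mouse numbers in the titles all differ between groups. The 36 differences of the 6 genes were recomputed in 20 other settings, and of the 720 values 651 kept direction and side of the threshold, 66 changed sign and 3 newly passed. Each of the 66 belongs to a difference that did not pass; the cause was not tested. With 3 libraries per group, the counts of genes called depend on tool and library.

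Members called rose from 0 to 1 with limma-voom and quality weights, in pre-MCS-01 against blank and against post-MCS-01, and leaving out 1 library gave 0 to 1 for post-MCS-01 against DSCG. Counts of all genes called were as follows. Against blank, post-MCS-01 gave 37 without a filter, 409 with DESeq2, 827 with quality weights and 255 in a fit of 2 groups, and pre-MCS-01 gave 69, 2485 and 2 in the last 3. For pre-MCS-01 and post-MCS-01 (134), DESeq2 gave 428, limma-voom 1, quality weights 3818, and omitting the 3 libraries poor in long transcripts 0. DESeq2 gave 17 for pre-MCS-01 against DSCG. For post-MCS-01 against DSCG (172), DESeq2 gave 620, limma-voom 2, and quality weights, a fit of 2 groups and omitting the 3 libraries 0 each. The joint test gave 568 with DESeq2 and 3263 with quality weights. Leaving out 1 library gave 0 to 222 for post-MCS-01 against blank, 0 to 254 for pre-MCS-01 against post-MCS-01, 0 to 606 for post-MCS-01 against DSCG and 0 to 273 in the joint test. Leaving out 1 library, 12 to 13, 12 to 14 and 11 to 13 of the 14 myelin genes were lower in pre-MCS-01 against blank, post-MCS-01 and DSCG.

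Signs changed with quality weights to 0.11 (Mbp) and -0.33 (Sox10) for pre-MCS-01 against blank, to -0.18 (Sox10) and -0.15 (S100b) for DSCG against blank, and to -0.15 (Sox10) for pre-MCS-01 against DSCG. For pre-MCS-01 against post-MCS-01 they became -0.20 (Sox10), -0.18 (S100b), 0.13 (Prx) and -0.097 (Egr2), and for post-MCS-01 against DSCG 0.047 (Sox10), 0.064 (Ngfr) and 0.27 (Egr2). With limma-voom, DSCG against blank became -0.064 (Mbp) and -0.077 (Sox10). Omitting the 3 libraries gave 0.014 (Mbp) and -0.28 (Sox10) for pre-MCS-01 against blank, -0.029 (Sox10), -0.32 (S100b) and 0.13 (Ngfr) for DSCG against blank, -0.24 (S100b) against post-MCS-01, and -0.25 (Sox10) and -0.032 (Egr2) for pre-MCS-01 against DSCG. Egr2 in that pair, at 0.0051, became -0.031 with RLE, -0.077 with total counts, -0.0089 without a filter, -0.031 with DESeq2 and -0.014 in a fit of 2 groups.

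Leaving out 1 library, values that changed sign ran as follows. Post-MCS-01 against DSCG gave -0.54 to 0.37 (Egr2), -0.89 to 0.24 (Ngfr) and -0.46 to 0.17 (Sox10). Pre-MCS-01 against DSCG gave -0.24 to 0.50 (Egr2), -0.57 to 0.37 (Mbp), -1.60 to 0.17 (S100b) and -0.090 to 0.47 (Sox10). Pre-MCS-01 against post-MCS-01 gave -0.046 to 0.53 (Egr2), -0.26 to 0.063 (Prx), -0.22 to 1.22 (S100b) and -0.016 to 0.53 (Sox10). DSCG against blank gave -0.57 to 0.33 (Mbp), -0.82 to 0.24 (Ngfr), -0.043 to 0.31 (Prx), -0.35 to 0.67 (S100b) and -0.32 to 0.38 (Sox10). Pre-MCS-01 against blank gave -1.30 to 0.15 (S100b) and -0.12 to 0.45 (Sox10). Post-MCS-01 against blank gave -0.47 to 0.16 (Sox10).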
